A study of Mus musculus with 8 samples.

Results

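The 10 genes described here encode secreted guidance cues of the netrin, Slit and semaphorin families and their receptors, namely Ntn1, Neo1, Unc5b, Slit2, Slit3, Robo1, Sema3c, Nrp1, Plxna1 and Plxna2. They were chosen by symbol, with earlier results of these data known. Matched to Ensembl identifiers through GENCODE M21, they make up 10 of the 45706 genes in the deposited table. The table holds RNA sequencing counts from whole hearts of male mice, 8 weeks old, of 3 genotypes. The conditional knockout (cKO, n = 4) was Elmsan1 fl/fl;aMHC-Cre+/-, the floxed control (n = 2) was Elmsan1 fl/fl without Cre, and the Cre control (n = 2) was aMHC-Cre+/- without floxed alleles. The aMHC promoter drives Cre in cardiomyocytes, so Elmsan1 is kept in the other cell types of a cKO heart. The cKO shares its floxed alleles with the first control and its Cre transgene with the second, and nothing in the labels says that hearts were pooled. Elmsan1 codes for a protein of MiDAC, a complex that removes acetyl groups from histones, and the study asked what its loss does to the heart.

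Guidance cues were first known for steering axons and also act in the heart and its vessels. Netrin-1 signals through neogenin and the UNC5 receptors, and neogenin is also the receptor of the repulsive guidance molecules. Slits are cut from larger precursors and bind Robo receptors. Class 3 semaphorins bind a neuropilin, which lacks a signalling domain of its own and passes the signal to an A-type plexin, and neuropilin-1 is in addition a co-receptor for VEGF on endothelial cells. Semaphorin 3C and its plexin receptors take part in the septation of the cardiac outflow tract, and Slit and Robo genes in the formation of heart chambers and valves.

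Totals lay between 17509564 and 25833259 estimated counts per library. The targeted gene, Elmsan1, reached at most 15.5 CPM in a cKO heart and at least 25.2 CPM in a control, which made it 1.85-fold lower (edgeR adjusted p = 8.93e-05). CPM are counts scaled to a common library size, with TMM factors that correct for composition. The contrast used throughout, unless another is named, sets cKO against both control groups, weighted equally. Fold changes were tested with edgeR over 15289 genes, and a gene is called when its edgeR adjusted p is under 0.05. Of all tested genes 52.1% were called, 26.5% lower and 25.5% higher in cKO, so that a single call was common in these hearts. Because whole hearts were measured, fewer cells of a type and less RNA per cell cannot be told apart.

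Netrin-1 and its receptor neogenin were both lower in cKO, while Unc5b was not called. Ntn1, the ligand gene (ENSMUSG00000020902, GRCm38 chromosome 11, 68209364 to 68400823, minus strand), stood at 70.1, 44.8, 53.4 and 56.3 CPM in cKO replicates 1 to 4, at 117 and 98.5 CPM in the floxed hearts and at 89.4 and 102 CPM in the Cre hearts. Each cKO heart was below each control heart. The cKO mean was 56.2 ± 10.5 CPM and the control mean 101.7 ± 11.7 CPM (SD, n = 4 each), a fall of 1.81-fold (log2 -0.85, SE 0.13; edgeR adjusted p = 0.000334). The call held in all 19 alternative settings of this contrast, with log2 values from -0.99 to -0.72.

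Neo1, which encodes neogenin, fell furthest of the 10 genes. It is ENSMUSG00000032340, at GRCm38 chromosome 9, 58874687 to 59036441, minus strand. The cKO hearts held 38.6, 33.6, 37.2 and 34.8 CPM, the floxed hearts 77.4 and 68.8 CPM, and the Cre hearts 84.4 and 70.1 CPM. The cKO values lay within a narrow band, and the highest of them was well under the lowest control. The fall was 2.09-fold (log2 -1.06, SE 0.09; edgeR adjusted p = 2.29e-05), and it was called in all 19 alternatives, at log2 -1.15 to -0.66. Unc5b, a netrin-1 receptor (ENSMUSG00000020099, GRCm38 chromosome 10, 60762593 to 60831581, minus strand), was at 41.4, 28.9, 25.8 and 32.4 CPM in cKO, 31.8 and 31.9 CPM in floxed and 34.2 and 30.2 CPM in Cre. Its groups overlapped, with cKO replicate 1 above and replicates 2 and 3 below all 4 controls. The log2 fold change was 0.00 (SE 0.13; edgeR adjusted p = 0.985), and it was called in none of the 19 alternatives.

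**Figure D1:**
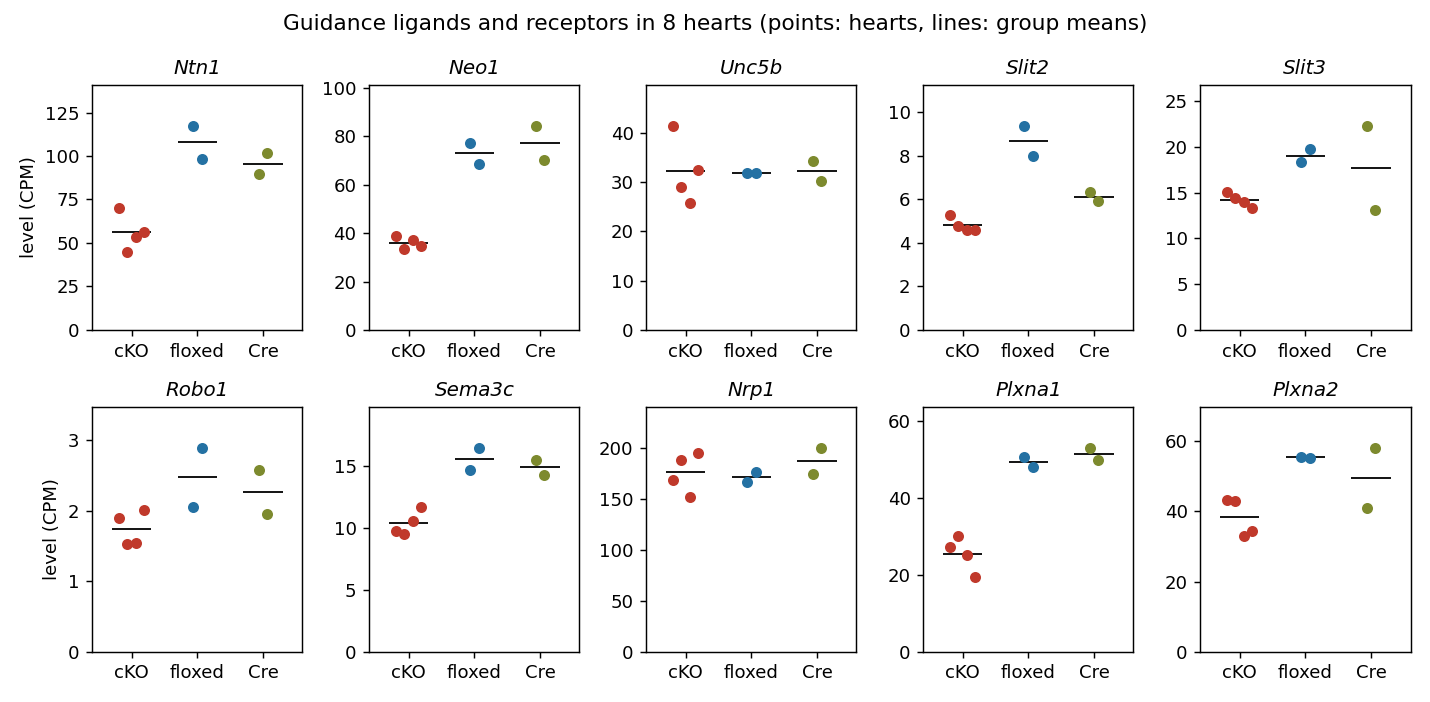
Level of each gene in CPM (y axis, from 0) in every heart, by group (x axis); points are hearts and black lines group means. The 4 cKO hearts lie below all 4 controls for Ntn1, Neo1, Slit2, Sema3c and Plxna1, while the groups overlap for Unc5b, Slit3, Robo1, Nrp1 and Plxna2.

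Among the Slit ligands, Slit2 was called lower and Slit3 was not called. Slit2 (ENSMUSG00000031558, GRCm38 chromosome 5, 47983138 to 48307733, plus strand) held 5.26, 4.79, 4.58 and 4.57 CPM in cKO, 9.38 and 8.00 CPM in floxed and 6.34 and 5.91 CPM in Cre. All cKO values were below all control values, yet the Cre hearts were closer to cKO than to the floxed hearts. The fall against both controls was 1.52-fold (log2 -0.61, SE 0.13; edgeR adjusted p = 0.00238). Slit3 (ENSMUSG00000056427, GRCm38 chromosome 11, 35121224 to 35708507, plus strand) was at 15.1, 14.4, 14.0 and 13.3 CPM in cKO, 18.4 and 19.7 CPM in floxed, and 22.3 and 13.1 CPM in Cre. The Cre hearts thus held both the highest and the lowest Slit3 value of the 8. The log2 fold change of -0.38 (SE 0.15; edgeR adjusted p = 0.0513) was just outside the threshold. Without Cre replicate 2 it was called at log2 -0.56 (edgeR adjusted p = 0.00233), and without Cre replicate 1 it was -0.16 and not called. Over the 19 alternatives the edgeR, DESeq2 or voom adjusted p of Slit3 ran from 0.00233 to 0.261, with 4 of them past the threshold.

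Robo1, the receptor (ENSMUSG00000022883, GRCm38 chromosome 16, 72308306 to 73046095, plus strand), was the least abundant of the 10 genes, with 31 to 68 counts per library. It was at 1.89, 1.53, 1.54 and 2.02 CPM in cKO, 2.06 and 2.90 CPM in floxed and 2.58 and 1.95 CPM in Cre. A single control value, in Cre replicate 2, fell inside the cKO range. The log2 fold change was -0.44 with an SE of 0.23 (edgeR adjusted p = 0.127), the largest error among the members. Over the 19 alternatives it was called in none, and with the length and GC offset it was at -0.045.

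Introns of both Slit2 and Slit3 hold a gene of the same microRNA, miR-218, on the strand of the host. Its mature form is identical from both hosts and is shown because it is the sequence that the Slit2 and Slit3 loci share, with the seed (bases 2 to 8) in capitals, from RefSeq on GRCm38.p6. The copies lie at chr5:48223966-48223986 within Slit2 and at chr11:35616840-35616860 within Slit3, both on the plus strand.
mmu-miR-218-5p: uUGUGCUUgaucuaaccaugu
The table lists both microRNA genes at 0 in every library, and these libraries were not made from small RNA, so the values above are those of the host genes and say nothing of the microRNA.

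In the semaphorin branch the ligand Sema3c and both A-type plexins were lower in cKO, and the neuropilin was not called. Sema3c (ENSMUSG00000028780, GRCm38 chromosome 5, 17574281 to 17730268, plus strand) held 9.73, 9.48, 10.6 and 11.7 CPM in cKO, 14.7 and 16.5 CPM in floxed and 15.5 and 14.3 CPM in Cre. The groups did not overlap. Its fall was 1.47-fold (log2 -0.55, SE 0.11; edgeR adjusted p = 0.00151).

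Nrp1, neuropilin-1 (ENSMUSG00000025810, GRCm38 chromosome 8, 128358604 to 128503363, plus strand), was the most abundant member. It was at 169, 188, 151 and 195 CPM in cKO, 166 and 176 CPM in floxed and 175 and 200.1 CPM in Cre, and the lowest and the second-highest of the 8 values were both cKO hearts. The log2 fold change was -0.03 (SE 0.10; edgeR adjusted p = 0.842), and no alternative called it. Its sign turned positive under upper-quartile scaling (0.09), library size alone (0.10) and the length and GC offset described further on (0.16).

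Plxna1, a plexin that transduces class 3 semaphorin signals, fell almost as far as Neo1. It is ENSMUSG00000030084, at GRCm38 chromosome 6, 89316314 to 89362620, minus strand. The cKO hearts held 27.1, 30.0, 25.1 and 19.4 CPM, the floxed hearts 50.5 and 48.0 CPM and the Cre hearts 53.0 and 49.8 CPM. The controls agreed closely with each other, and cKO replicate 4 was the lowest of all. The log2 fold change was -0.99 (SE 0.12; edgeR adjusted p = 9.49e-05), a 1.99-fold fall that was called in all 19 alternatives, at log2 -1.07 to -0.82. An antisense gene, Gm26811, shares 970 bases of exon with Plxna1, and with no strand setting given their reads cannot be told apart. The table gives that gene only 1 to 11 counts per library. Plxna2 (ENSMUSG00000026640, GRCm38 chromosome 1, 194618218 to 194816869, plus strand) was at 43.2, 43.1, 33.0 and 34.4 CPM in cKO, 55.6 and 55.2 CPM in floxed, and 40.9 and 58.2 CPM in Cre. Cre replicate 1 lay within the cKO range. Plxna2 fell 1.36-fold (log2 -0.45, SE 0.13; edgeR adjusted p = 0.0139). Without Cre replicate 2 the log2 value was -0.33 and the call ended (edgeR adjusted p = 0.0524, range over the alternatives 0.00119 to 0.777).

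All 10 genes passed the filter on low counts. Of them 6 were called lower, none higher, and 4 were not called, with a median log2 fold change of -0.50 beside 0.04 for all genes tested. The shares to read this against are 26.5% called lower over all genes, and 26% of genes with all 4 cKO values under all 4 control values, where 5 of the members were (23.4% of genes, and no member, had all cKO values above). The members were chosen with earlier results of these data known, so setting their counts beside these shares is a description and not a test. The members are long. Their longest transcripts measure 3645 to 11040 bases, against a median of 3438 bases for tested coding genes, and in these data long transcripts were more often lower. Among 6681 coding genes with a transcript of at least 3500 bases 40.1% were called lower and 15% higher, with a median of -0.20, against 17% and 36.1% among 7063 shorter ones. That boundary was set after the members' lengths were known.

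When each library was also adjusted for smooth trends with transcript length and GC content, the members separated into those that kept their fall and those that did not. Ntn1 (log2 -0.88), Plxna1 (-0.87) and Neo1 (-0.66) were still called lower, and Slit3 (-0.42) was now called. Slit2 moved to -0.11, Sema3c to -0.21 and Plxna2 to -0.04, and none of these was called any more. In this fit 4 of the 10 members were called lower, beside 3672 of 15289 genes. Whether the trend with length comes from the libraries or from the hearts was not tested.

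**Figure D2:**
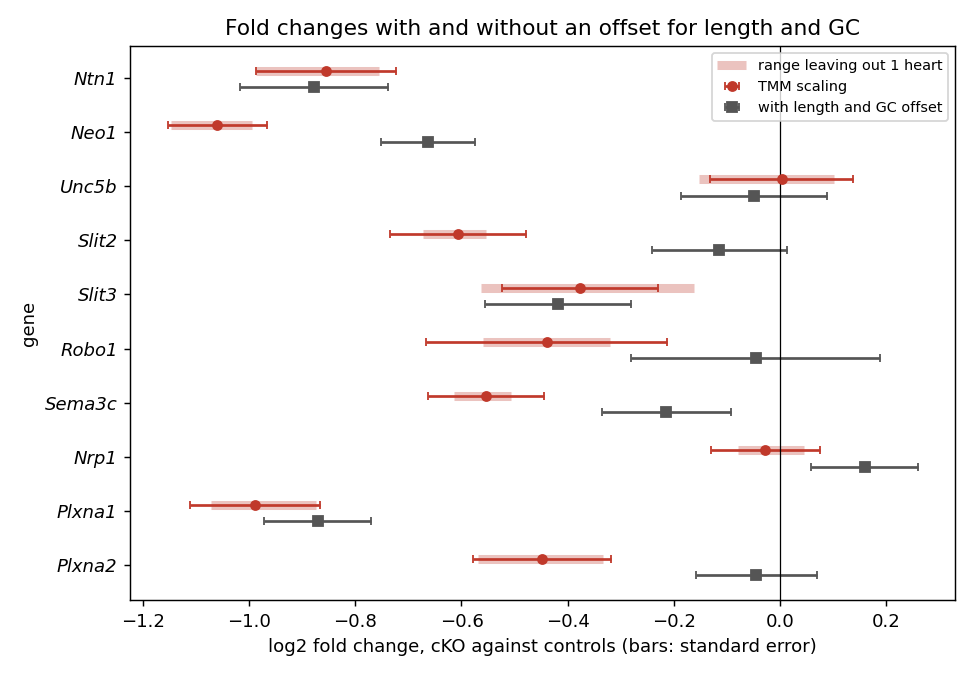
Log2 fold change of each gene (x axis, cKO against controls) with its standard error, by TMM scaling (red circles) and with the length and GC offset (grey squares); pale red bands span the values when 1 heart was left out. Ntn1, Neo1 and Plxna1 stay below -0.6 in both, whereas Slit2 and Plxna2 move to -0.11 and -0.04 with the offset.

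Each control group was also set against cKO alone, in 2 comparisons that share the cKO hearts. In cKO against floxed 42.9% of all genes were called (23.1% lower and 19.8% higher), and 6 members were among those lower. In cKO against Cre 42.4% were called (22.8% lower and 19.6% higher), and 4 members were. Ntn1 (log2 -0.94 against floxed and -0.77 against Cre), Neo1 (-1.02 and -1.10), Plxna1 (-0.96 and -1.02) and Sema3c (-0.59 and -0.52) were called against each. For Ntn1, Neo1 and Plxna1 these calls held in all 19 alternatives of each comparison. The Sema3c calls ended with the offset in both, without floxed replicate 2 against floxed (log2 -0.51), and without Cre replicate 1 (-0.46) or with library size alone (-0.41) against Cre. Slit2 was called at -0.86 against floxed and not at -0.35 against Cre (edgeR adjusted p = 0.0889), and Plxna2 at -0.53 against floxed and not at -0.37 against Cre (edgeR adjusted p = 0.0831). The Slit2 call against floxed held in 18 of the 19 alternatives (log2 -0.97 to -0.38 over all 19), and the Plxna2 call in 15. Settings that ended the Plxna2 call included leaving out either floxed heart (log2 -0.54 in each case) and the offset (-0.12). The test of these differences is Cre against floxed, in which 15 of all genes (0.0981%, of which 0.0916% lower and 0.00654% higher) and 0 members were called by edgeR (DESeq2 called 62 genes and limma voom 23). There, 526 genes and 1 member had an unadjusted p under 0.05. That member was Slit2, at log2 -0.50 (SE 0.18; edgeR adjusted p = 1), lower in both Cre hearts than in both floxed hearts. The difference between the 2 falls of Slit2 or of Plxna2 therefore did not pass correction.

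**Figure D3:**
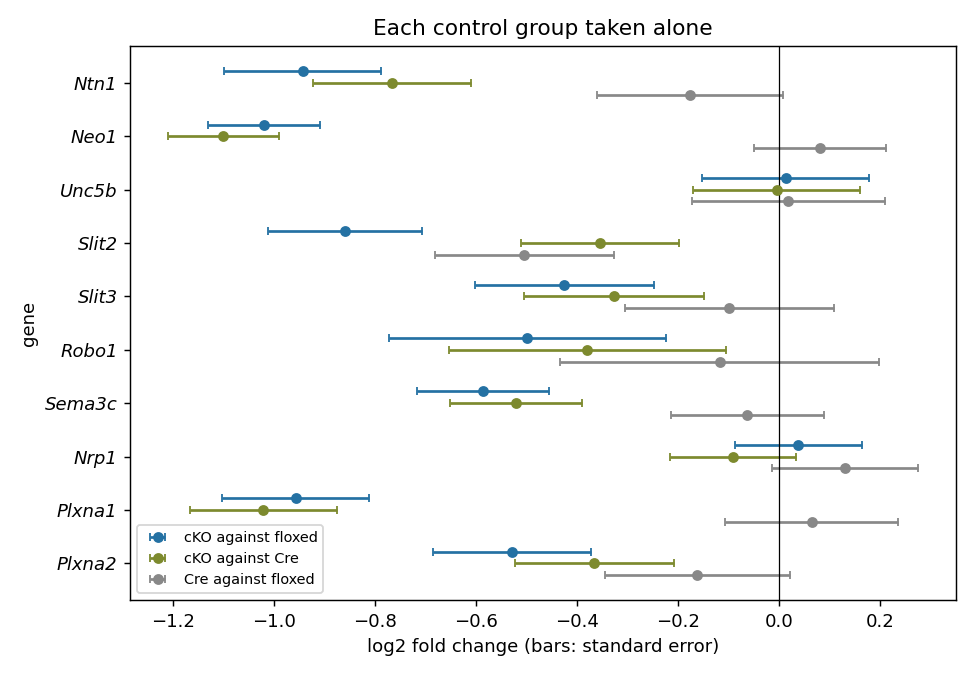
Log2 fold change of each gene (x axis) with its standard error with cKO compared with each control and the 2 controls with each other. For Ntn1, Neo1, Sema3c and Plxna1 both cKO comparisons are between -1.10 and -0.52, and the Cre against floxed values lie between -0.18 and 0.08.

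To compare levels between genes, CPM were divided by the length of the longest transcript in kilobases. In control hearts the order of these levels was Nrp1 (49.2 ± 4.00 CPM per kilobase, SD, n = 4), Ntn1 (17.3 ± 1.98), Neo1 (10.2 ± 0.98), Plxna1 (5.57 ± 0.23), Unc5b (5.46 ± 0.28), Plxna2 (4.75 ± 0.71), Slit3 (3.52 ± 0.74), Sema3c (2.78 ± 0.18), Slit2 (0.74 ± 0.16) and Robo1 (0.31 ± 0.06). From Plxna1 down to Sema3c each gene overlapped its neighbour in range, and the first 3 and last 2 genes stood clear of theirs. In cKO hearts Unc5b (5.48 ± 1.15) and Neo1 (4.89 ± 0.31) overlapped, whereas in controls every heart held more Neo1 than Unc5b on this scale. Plxna2 (3.48 ± 0.49), Plxna1 (2.81 ± 0.49) and Slit3 (2.71 ± 0.14) overlapped as neighbours in cKO. Nrp1 (48.2 ± 5.39) and Ntn1 (9.56 ± 1.78) remained first and second, and Slit2 (0.48 ± 0.03) and Robo1 (0.23 ± 0.03) last.

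The other genes of these pathways, taken from lists written with earlier results known, were divided. Of 104 listed genes outside the ephrin family 92 were tested, of which 26 were lower, 17 higher and 49 not called, with a median log2 fold change of -0.01. Their 28.3% called lower is close to the background of 26.5%. Netrin-related ligands included 3 lower (Ntn4, Rgma and Rgmb) and none higher of 5 tested. Rgmb and Rgma, ligands of neogenin, fell 1.62-fold (edgeR adjusted p = 0.00315) and 1.19-fold (edgeR adjusted p = 0.0236), but settings that ended the Rgma call included upper-quartile scaling (log2 -0.14), library size alone (-0.12) and 4 of the fits that left out a heart. Rgma was also not called against the Cre hearts taken alone (log2 -0.20; edgeR adjusted p = 0.126). The third ligand of that family, Hjv, known for its part in iron handling, was 156 ± 9.41 CPM in the 4 cKO hearts against 179.7 ± 5.12 CPM in controls, with log2 -0.20 (edgeR adjusted p = 0.0609), and was called at -0.52 with the offset. Among the other netrin receptors and binding partners of UNC5 proteins, none of 4 tested was called. Flrt2, one of these partners, was the most abundant (log2 0.16; edgeR adjusted p = 0.33), although with the offset it was called at 0.60. Dcc, the receptor that guides commissural axons, had 0 counts in every library. For scale, 3 counts would be 0.114 to 0.158 CPM in these libraries.

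Among 10 tested partners of Slit and Robo 3 fell and 1 rose (30% and 10%, beside 26.5% and 25.5% of all genes tested). Dag1, dystroglycan, which also binds Slit, fell 2.73-fold, from 420 ± 13.3 to 154 ± 20.4 CPM (SD, n = 4 each; edgeR adjusted p = 1.62e-05). Usp33, a deubiquitinase that binds Robo1, fell 1.57-fold (edgeR adjusted p = 0.000252), and the glypican gene Gpc1 1.23-fold (edgeR adjusted p = 0.0217). Settings that ended the Gpc1 call included upper-quartile scaling (log2 -0.18), library size alone (-0.17), and leaving out floxed replicate 1 (-0.27) or Cre replicate 1 (-0.28). Gpc1 was also not called against the Cre hearts taken alone (log2 -0.28; edgeR adjusted p = 0.0713). Robo4, the endothelial Robo, rose 1.66-fold, from 36.3 ± 3.34 to 60.1 ± 14.0 CPM (SD, n = 4 each; edgeR adjusted p = 0.0017). Srgap2, an adaptor of Robo signalling, was not called (log2 0.17; edgeR adjusted p = 0.104), but was under upper-quartile scaling (0.28), library size alone (0.29) and the offset (0.60).

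Of 18 other semaphorins 3 fell and 5 rose (16.7% and 27.8%, beside 26.5% and 25.5% of all genes tested), with a median of 0.23. Sema4d, a ligand of B-type plexins, fell 4.21-fold, from 32.8 ± 3.61 to 7.79 ± 1.84 CPM (SD, n = 4 each; edgeR adjusted p = 1.62e-05), more than any member. Sema5a and Sema4b fell 1.40-fold and 1.26-fold (edgeR adjusted p = 0.0264 and 0.0439), the first turning to log2 0.016 with the length and GC offset. Neither was called against the floxed or the Cre hearts taken alone. With both controls, neither was called under upper-quartile scaling or with library size alone. Each lost its call in several fits that left out a heart, at log2 -0.49 to -0.38 for Sema5a and -0.36 to -0.23 for Sema4b. Sema3f, which signals through neuropilin-2, rose 1.55-fold (edgeR adjusted p = 0.0111, and log2 0.37 and not called with the offset). Sema4a, Sema4f, Sema6b and Sema7a were also called higher. None of these 5 was called against each control group taken alone. Sema3f, Sema6b and Sema7a were not called against floxed (edgeR adjusted p = 0.0636, 0.151 and 0.0945). Sema4a and Sema4f were not called against Cre (edgeR adjusted p = 0.0576 and 0.225). Sema6d, the most abundant uncalled one, was at log2 0.00 and with the offset was called at 0.34. Among 8 other plexins and neuropilin-2 there were 2 falls (25%) and no rise. Plxnb2 fell 1.79-fold, from 160 ± 11.1 to 89.6 ± 6.88 CPM (SD, n = 4 each; edgeR adjusted p = 5.05e-05), and Plxna4 1.53-fold (edgeR adjusted p = 0.00337). Plxnd1, the endothelial plexin, was at log2 0.10 and not called.

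**Figure D4:**
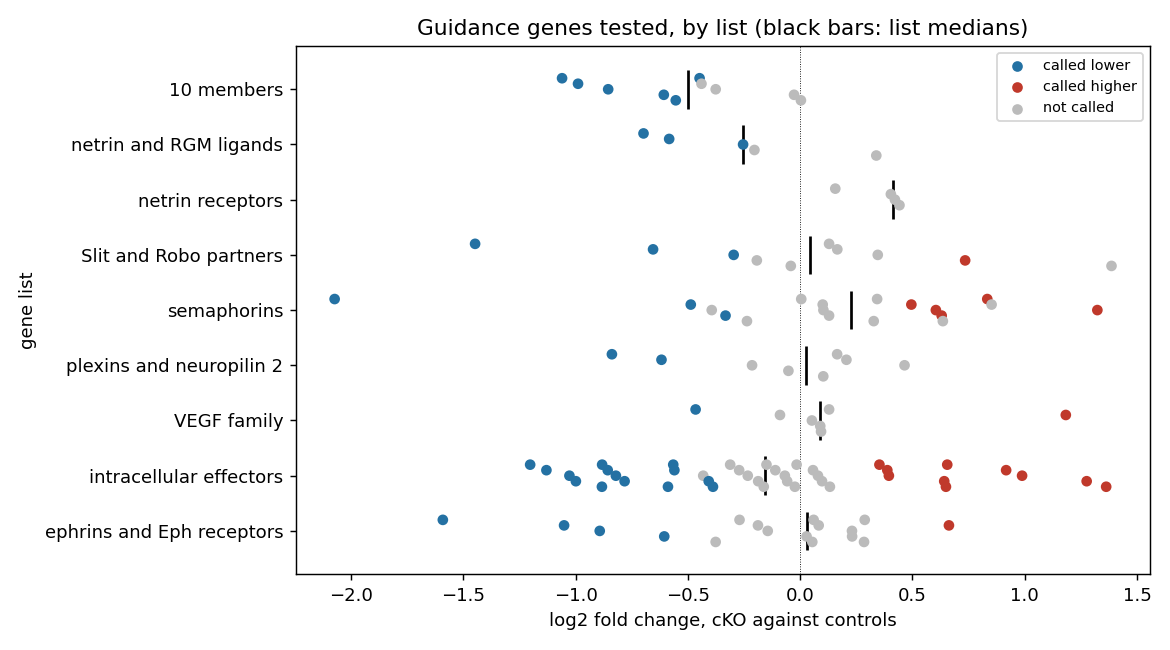
Log2 fold change in cKO against controls (x axis) of each tested gene, in the 10 members and in each list of other guidance genes (y axis); blue points were called lower, red higher, grey not called, and black bars are list medians. The members' median is -0.50, and the medians of the other lists run from -0.25 to 0.41. All lists were chosen with earlier results of these data known.

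Downstream of these receptors, among 40 intracellular effectors, 14 fell and 10 rose (35% and 25%, beside 26.5% and 25.5% of all genes tested). Gsk3b, a kinase of collapsin response mediators, fell 2.30-fold (edgeR adjusted p = 2.22e-05). Dpysl2, the collapsin response mediator that semaphorin 3 signalling acts through, rose 2.57-fold, from 15.8 ± 1.46 to 40.5 ± 7.88 CPM (SD, n = 4 each; edgeR adjusted p = 3.14e-05). Rhoa was at log2 -0.23 and not called (edgeR adjusted p = 0.0557), but was called by DESeq2 (-0.23), by limma voom (-0.24) and without cKO replicate 4 (-0.29).

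Windows of the 250 bases before the RefSeq start on GRCm38.p6 were found for 8 of the 10 members. A gene can have several starts, and for 6 of the 8 the RefSeq start lies inside the GENCODE gene. The window is wholly within the gene for Robo1, Sema3c, Nrp1 and Plxna2, whose RefSeq starts are 354843, 535, 469 and 1611 bases past the GENCODE start. It overlaps the gene by 232 bases in Slit3 and 17 bases in Slit2, and by none in Neo1 and Unc5b. The windows of these last 2, a netrin receptor that fell and one that was not called, are shown side by side in the direction of transcription. Capitals mark the letters GGGCGG, the core of the GC box, on either strand. Neo1 is at chr9:59036442-59036691 on the minus strand and Unc5b at chr10:60831582-60831831 on the minus strand.
Neo1: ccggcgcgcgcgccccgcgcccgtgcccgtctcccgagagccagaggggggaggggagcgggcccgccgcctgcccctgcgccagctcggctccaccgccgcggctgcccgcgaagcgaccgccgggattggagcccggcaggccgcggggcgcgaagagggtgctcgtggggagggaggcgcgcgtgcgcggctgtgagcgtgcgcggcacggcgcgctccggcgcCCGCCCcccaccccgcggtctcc
Unc5b: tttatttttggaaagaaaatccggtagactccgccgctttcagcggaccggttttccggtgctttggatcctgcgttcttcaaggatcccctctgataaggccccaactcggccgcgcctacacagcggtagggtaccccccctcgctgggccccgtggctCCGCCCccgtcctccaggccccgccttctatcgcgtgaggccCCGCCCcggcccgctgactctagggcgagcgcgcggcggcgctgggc
The Neo1 window is 83.2% G and C with 45 CpG, and the Unc5b window 66.8% with 27 CpG, while the median over 32851 such windows is 6 CpG. GGGCGG was found on either strand in 7 of the 8 members, in all but Robo1, and in 32.7% of all windows. The members' windows held 11 to 45 CpG, and no share was taken over windows of like CpG content. TATAAA, the TATA box letters, was found in Slit2 alone of the 8, and in 12.4% of all windows. CACGTG, an E-box, was found in none of the 8, and in 6.0% of all windows. GGGCGG was thus present both in members that fell (Neo1, Slit2, Sema3c and Plxna2) and in members that were not called (Unc5b, Slit3 and Nrp1).

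Several of these genes are known from particular cell types, so marker lists were read in the same hearts. Over all genes tested 25.5% were called higher and 26.5% lower. Among coding genes with transcripts under 3500 bases 36.1% were called higher and 17% lower. Of 8 endothelial markers 6 were higher and none lower in cKO, and their summed level was 840 to 1099 CPM in cKO and 600.2 to 640 CPM in controls, while Nrp1 and Unc5b, both active in endothelium, were not called. Outside this list, the VEGF receptor gene Kdr was called lower (log2 -0.47), though not against floxed alone. Robo4 was called higher, and Plxnd1 was not called. Of 7 fibroblast markers 1 rose and none fell, with sums of 892 to 1159 and 679 to 923 CPM. Among 8 mural cell markers none rose and 1 fell, with sums of 608 to 1001 and 716 to 795 CPM. Cardiomyocyte markers, which check the tissue label, summed to 38356 to 44999 CPM in cKO and 43373 to 47334 CPM in controls, with 3 lower and 2 higher of 7. Of 6 atrial markers 5 rose and none fell, at 4571 to 10063 against 1714 to 3217 CPM, and of 6 macrophage markers 5 rose and none fell, at 207 to 268 against 124 to 148 CPM. For Schwann cells and neurons 3 of 7 tested markers rose and none fell, at 30.3 to 40.4 against 21.9 to 24.5 CPM. Of 5 lymphatic endothelial markers Ccl21a rose and Prox1 fell, and their sum was 67.8 to 78.6 against 116 to 128 CPM. Prox1 alone carried the lower sum, since the other 4 summed to 47.0 to 67.6 CPM in cKO and 35.4 to 50.7 CPM in controls. Of 4 epicardial markers 1 rose and none fell, at 10.1 to 44.7 against 19.4 to 29.0 CPM. No marker of 3 tested lymphocyte genes was called, at 9.89 to 14.1 against 6.46 to 13.9 CPM. No marker was at 0 in all libraries. The part of these cell types in the members' levels was not tested, nor was the part of transcript length in the marker calls.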

How the data were processed

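RNA was taken from whole hearts, and the labels' protocols name the NEBNext Ultra RNA kit for the libraries. Estimated counts for 45706 Ensembl genes in 8 libraries were deposited by the authors as a single table. The submitters' processing notes list the tools STAR 2.5.1b and DESeq2 and the builds mm10 and GRCm38. Which program counted reads, with which annotation and strand setting, is not given in the sources used here. Groups came from genotype labels, and columns from library names. The members and gene lists were chosen with earlier results of these data known.

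Estimated counts were rounded, and genes were filtered with filterByExpr, which left 15289. Symbols, GRCm38 positions and transcript lengths came from GENCODE M21, and Hjv was matched through its RefSeq synonym. Libraries were scaled by TMM, and CPM are given as mean ± SD. All 8 libraries were fitted with 3 group means (5 residual degrees of freedom) in edgeR 4.0.16 under R 4.3.3, by robust quasi-likelihood tests adjusted after Benjamini and Hochberg over all genes. SE were derived from the F statistic. There were 4 contrasts: cKO with the equally weighted controls, cKO with each control group, and Cre with floxed. The labels give each sample as a replicate heart without saying more of its source, so p-values measure the spread between these samples. Libraries of a group differed by more than counting noise (chi-square per degree of freedom from 13.1), so none was merged.

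Named genes outside the 10 members were, per list, up to 4 called genes with the smallest p, a mean of at least 1 CPM and no overlap between cKO and controls, plus the most abundant uncalled gene. Of the intracellular effectors, 2 genes that met this rule, both called lower, are not reported here. Dcc was named in addition after its values were seen. Ntn4, Sema4a, Sema4f, Sema6b, Sema7a, Efna1, Kdr and Pgf are named only to say which genes a count holds, and Kdr also beside the endothelial markers. These genes were not named by the rule, and they were not followed gene by gene through the alternatives. Alternatives were DESeq2 1.42.0 or limma voom 3.58.1 as the test, scaling by library size alone, upper quartiles or median ratios, keeping all genes or those with a mean of at least 1 CPM, pooled controls, a non-robust fit, fitting the compared groups alone, a replicate block, an offset smooth in log2 transcript length and GC content (mgcv 1.9.3; values for 99.5% of tested genes), and leaving out each library. Motifs were counted by exact match on both strands. Figures were drawn with matplotlib 3.10.9.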

Additional observations from a re-analysis of the deposited data

Results flagged for a closer look

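Among the 10 members and the 28 other named genes, each read over its 4 cKO hearts, 1 gene had a heart standing apart by Dixon's test at the 95% level. Srgap2, an adaptor of Robo signalling, was at 40.15 CPM in cKO replicate 4 and at 36.1 to 36.5 CPM in the other cKO hearts. Chance flags about 1 in 20 groups of samples. No member stood apart in this way.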

How the results depend on the processing

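The number of members called lower in cKO against controls was 6 and lay between 4 and 7 over the alternatives, with none called higher in any of them; it was 6 without each library in turn. Upper-quartile scaling and library size alone moved the median of all genes from 0.04 to 0.16 and 0.17 and that of the members from -0.50 to -0.39 and -0.37. They turned the split of all called genes from 3906 higher and 4052 lower to 4871 and 3351, and to 4749 and 2981, and that of all other guidance genes, ephrins included, from 18 higher and 30 lower to 26 and 25, and to 23 and 22.

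For all genes, leaving out 1 library gave 3600 to 7039 calls in cKO against floxed (6561 with all libraries; 3600 and 3627 without floxed replicate 1 and 2), 3927 to 6935 in cKO against Cre (6481; 3927 without Cre replicate 2) and 7 to 18 in Cre against floxed (15; 7 without floxed replicate 2, and 9 without either Cre replicate). An arm left with 1 library was assumed to vary like the others. Cre against floxed gave 62 calls by DESeq2, 23 by limma voom, 31 with no filter and 32 with only those groups fitted. With the replicate block it gave 84, and cKO against controls 6375 (7958 without it), the members called being 5 of 10. Only cKO has replicates numbered 3 and 4, so the block fits each of those hearts exactly. They add nothing to the contrasts of that fit, which rest on cKO replicates 1 and 2. The block ended the calls of Plxna2 (-0.27), Rgma (-0.25), Gpc1 (-0.31), Sema4b (-0.37) and Epha7 (-0.52). Deviations of libraries with the same replicate number in their sample titles correlated between groups at -0.0989 to 0.124. The 2 libraries of a control group deviate as mirror images, so these values cannot decide whether the numbers pair the samples.

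Some log2 values changed sign. Unc5b and Nrp1 were within 0.10 of 0 to begin with. Unc5b against controls was at -0.021 by limma voom, -0.018 with no filter and -0.049 with the length and GC offset, and against floxed at -0.012, -0.00395 and -0.013 in those settings. Against Cre it was at 0.0019 (median ratios), 0.087 (upper quartiles), 0.10 (library size alone), 0.0025 (DESeq2), 0.015 (filter at 1 CPM) and 0.11 (replicate block). Nrp1 against controls was at 0.086 (upper quartiles), 0.10 (library size alone) and 0.16 (offset), and against Cre at 0.0059, 0.020 and 0.12. The offset also turned larger falls. Against Cre it moved Slit2 from -0.35 to 0.15, Robo1 from -0.38 to 0.020 and Plxna2 from -0.37 to 0.033, and against controls Rhoa from -0.23 to 0.071 and Sema5a, which had been called, from -0.49 to 0.016. Sema6d was at -0.0097 by limma voom and -0.017 with no filter. None of the values with a changed sign was called, and the cause was not tested.

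Leaving out 1 library, Unc5b ran from -0.15 to 0.10 against controls, from -0.14 to 0.11 against floxed and from -0.17 to 0.095 against Cre. Nrp1 ran from -0.079 to 0.046 against controls and from -0.016 to 0.11 against floxed, and Slit3 from -0.69 (without Cre replicate 2) to 0.11 (without Cre replicate 1) against Cre. In Cre against floxed Neo1 ran from -0.073 to 0.23, Unc5b from -0.087 to 0.13, Slit3 from -0.55 to 0.25, Robo1 from -0.36 to 0.16, Sema3c from -0.16 to 0.035 and Plxna2 from -0.41 to 0.059. Against controls Sema6d ran from -0.11 to 0.12 and Plxnd1 from -9.07e-05 to 0.19.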

Other observations

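Ephrins and Eph receptors, a guidance family that signals by contact between cells, included 4 lower and 1 higher (Efna1) of 17 tested genes in cKO against controls, with a median log2 fold change of 0.03. These are shares of 23.5% lower and 5.88% higher, beside 26.5% and 25.5% of all genes tested. Efnb3 fell 3.01-fold, from 77.5 ± 15.7 to 25.5 ± 4.94 CPM (SD, n = 4 each; edgeR adjusted p = 3.41e-05), and Efna5 2.07-fold (edgeR adjusted p = 0.000115). The receptor genes Epha4 and Epha7 fell 1.86-fold and 1.52-fold (edgeR adjusted p = 0.00289 and 0.00551), the second at log2 -0.18 and no longer called with the length and GC offset. Epha7 was called against Cre and not against floxed (log2 -0.43; edgeR adjusted p = 0.0737). Ephb4, a receptor of venous endothelium and the most abundant uncalled gene of the list, was at log2 0.23 (edgeR adjusted p = 0.1), and was called under upper-quartile scaling (0.34), with library size alone (0.36) and without cKO replicate 2 (0.33). Among 7 genes of the VEGF family and its receptors, which share neuropilin-1, 1 fell (Kdr, log2 -0.47) and 1 rose (Pgf, log2 1.18), 14.3% each. Both were called in cKO against Cre, and neither in cKO against floxed (edgeR adjusted p = 0.104 and 0.0659). Vegfa was at 312 ± 44.4 CPM in cKO against 286 ± 36.1 CPM in controls (SD, n = 4 each, edgeR adjusted p = 0.358).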
